A study of Homo sapiens with 6 samples.

Results

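The HOX cluster genes are the protein-coding homeobox genes that sit in 4 chromosomal clusters, HOXA, HOXB, HOXC and HOXD. They were taken by gene symbol from the deposited expression table of A673 Ewing sarcoma cells, without use of any expression value, and 38 of its 25268 symbols were included. HOXA (chromosome 7) and HOXB (chromosome 17) gave 10 genes each, and HOXC (chromosome 12) and HOXD (chromosome 2) gave 9 each. By paralog group, the number shared by matching genes of the clusters, 7 were anterior (groups 1 to 3), 15 central (groups 4 to 8) and 16 posterior (groups 9 to 13).

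HOX genes encode homeodomain transcription factors that give cells their position along the body and limb axes, and their order within a cluster follows the order in which they are used from head to tail. Polycomb proteins keep unused clusters silent, Trithorax and MLL proteins keep used ones active, and retinoic acid opens the anterior end first. Many HOX proteins bind DNA together with TALE homeodomain cofactors of the PBX, MEIS and PKNOX families. High RNA of the posterior HOXD genes is a known feature of Ewing sarcoma, a bone and soft tissue tumour driven in most cases by EWS-FLI1, whose FLI1 part binds the DNA letters GGAA.

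A673, an established cell line from a Ewing sarcoma, has the EWSR1-FLI1 fusion and was the only line used. All cells were transfected for 72 h with an esiRNA, a pool of short interfering RNAs cut by enzyme from a long double-stranded RNA. In esiFLI1 the pool was directed at EWS-FLI1, in esiUSP9X at the deubiquitinase USP9X, and in esiGFP at GFP as the nontargeting control. Each group had 2 libraries, numbered 1 and 2, and the series asks how loss of USP9X compares with loss of the fusion.

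Promoter windows from RefSeq (build GRCh38.p14, 250 bases before to 50 after a start) show what the most abundant HOXD genes have beside members of the family listed at or near 0. A window was found for 20 of the 38 genes. The submitters' processing notes name hg19 and GRCh37 for the expression values, so these coordinates serve only to place the sequences. Capitals mark GGAA, or TTCC where it lies on the other strand. The first 4 windows belong to genes with 24.0 to 66.3 FPKM over the libraries, and the other 3 to genes that reached at most 0.212 FPKM.
HOXD8 (chr2:176129455-176129754, plus strand): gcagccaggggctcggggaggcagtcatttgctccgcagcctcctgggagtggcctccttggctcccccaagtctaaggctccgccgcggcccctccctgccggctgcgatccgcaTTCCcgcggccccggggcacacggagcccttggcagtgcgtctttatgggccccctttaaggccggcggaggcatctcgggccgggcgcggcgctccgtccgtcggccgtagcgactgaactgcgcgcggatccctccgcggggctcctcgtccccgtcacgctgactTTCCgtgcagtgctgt
HOXD10 (chr2:176116528-176116827, plus strand): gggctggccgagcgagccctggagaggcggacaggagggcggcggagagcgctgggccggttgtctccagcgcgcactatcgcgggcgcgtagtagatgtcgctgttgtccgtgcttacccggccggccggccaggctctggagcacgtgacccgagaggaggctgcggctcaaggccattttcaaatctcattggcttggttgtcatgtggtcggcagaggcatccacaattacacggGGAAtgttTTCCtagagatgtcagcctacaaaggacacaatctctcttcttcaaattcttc
HOXD11 (chr2:176107030-176107329, plus strand): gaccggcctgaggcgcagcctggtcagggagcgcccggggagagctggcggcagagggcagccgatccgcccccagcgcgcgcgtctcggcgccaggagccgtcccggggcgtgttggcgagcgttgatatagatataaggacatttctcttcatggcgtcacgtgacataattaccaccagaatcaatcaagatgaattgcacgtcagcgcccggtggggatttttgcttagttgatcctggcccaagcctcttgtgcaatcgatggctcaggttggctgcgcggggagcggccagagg
HOXD13 (chr2:176092471-176092770, plus strand): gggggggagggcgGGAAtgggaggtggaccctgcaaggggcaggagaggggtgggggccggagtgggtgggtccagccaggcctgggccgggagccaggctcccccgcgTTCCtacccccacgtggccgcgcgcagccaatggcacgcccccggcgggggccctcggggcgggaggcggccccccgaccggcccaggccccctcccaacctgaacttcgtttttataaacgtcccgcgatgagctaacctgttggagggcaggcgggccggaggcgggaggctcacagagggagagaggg
HOXD12 (chr2:176099545-176099844, plus strand): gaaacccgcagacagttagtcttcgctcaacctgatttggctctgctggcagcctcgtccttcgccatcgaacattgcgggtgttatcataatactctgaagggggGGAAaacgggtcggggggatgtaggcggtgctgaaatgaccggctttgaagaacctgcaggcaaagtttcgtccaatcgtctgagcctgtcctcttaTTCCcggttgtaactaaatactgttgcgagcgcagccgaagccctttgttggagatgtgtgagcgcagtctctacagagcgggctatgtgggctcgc
HOXA11 (chr7:27185183-27185482, minus strand): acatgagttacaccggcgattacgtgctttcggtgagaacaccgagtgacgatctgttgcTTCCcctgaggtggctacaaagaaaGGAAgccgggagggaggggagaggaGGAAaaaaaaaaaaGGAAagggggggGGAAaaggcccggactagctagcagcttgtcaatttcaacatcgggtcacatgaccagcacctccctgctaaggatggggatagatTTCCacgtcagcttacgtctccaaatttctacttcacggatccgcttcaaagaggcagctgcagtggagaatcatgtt
HOXA13 (chr7:27200042-27200341, minus strand): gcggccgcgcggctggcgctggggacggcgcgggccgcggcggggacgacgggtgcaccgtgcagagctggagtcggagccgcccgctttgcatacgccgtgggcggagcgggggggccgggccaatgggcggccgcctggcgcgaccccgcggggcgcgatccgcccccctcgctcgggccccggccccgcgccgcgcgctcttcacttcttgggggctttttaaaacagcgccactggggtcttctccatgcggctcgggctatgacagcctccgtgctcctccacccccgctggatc

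GGAA counts overlapped between the abundant genes and those listed at or near 0. The windows of HOXD8, HOXD10, HOXD13 and HOXD12 each held 2 matches on either strand, HOXD11 and HOXA13 held 0, and HOXA11 held 6. Over all 35116 windows of the table, 95.5% held GGAA or TTCC, with a median of 3 matches. The doubled motif GGAAGGAA, searched on both strands and counted within the single motif too, was found in 1 of the 16 HOXA windows, that of HOXA2, in 0 of the 8 HOXD windows and in 3.67% of all windows. TATAAA, searched on both strands, was found in the HOXD window of HOXD13 alone, in 4 HOXA windows and in 11.5% of all windows. The ratio of observed to expected CG pairs had a median of 0.869 over the HOXD windows, 0.814 over the HOXA windows and 0.579 over all windows. The 16 HOXA windows belong to 9 genes and the 8 HOXD windows to 8 genes. HOXA3 and HOXA10 have more than a single window each, so they weigh more in the HOXA median and counts. These matches describe the letters of the windows and are no evidence of binding.

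Levels are in FPKM, the authors' read counts scaled to transcript length and library size, which allows genes to be compared per length. The libraries' FPKM summed to 781732 to 907926. A single entry, MIR6723, held 33.2% (esiUSP9X 1) to 50.9% (esiFLI1 2) of these sums, with the larger share in replicate 2 of each group. The read depth is unknown, and a value of 0 cannot be read as absence, since CD99, a defining Ewing sarcoma antigen, is listed at 0 in all 6 libraries. EEF1A1, a translation factor of every cell, had 2928 to 3578 FPKM in the 4 esiFLI1 and esiUSP9X libraries but a listed 0 in esiGFP 1 and 2. FLI1 RNA, which includes the end of the fusion, was at 12.7 and 14.1 FPKM in esiFLI1, 25.0 and 31.9 in esiUSP9X and 24.1 and 36.4 in esiGFP. EWSR1 RNA, which includes the start of the fusion, was at 94.1 and 84.9 FPKM in esiFLI1, 108 and 113 in esiUSP9X and 105 and 117 in esiGFP. USP9X RNA was at 26.2 and 37.7 FPKM in esiFLI1, 5.31 and 7.10 in esiUSP9X and 20.6 and 26.5 in esiGFP. Each targeting esiRNA group was thus lowest for its own target, which limma's blocked fit called in both (adjusted p = 0.000439 for FLI1 and 0.000453 for USP9X) and the fit without the block did not (0.128 and 1). Over the 10 blocked settings tried these values stayed at or under 0.0154 for FLI1 and 0.0163 for USP9X in limma. Of 10 Ewing sarcoma markers 9 passed the filter used for all tests, 1 FPKM or more in 2 or more libraries, while 0 of 6 epithelial and 0 of 6 blood markers did.

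HOXA was listed at or near 0 throughout. All 10 HOXA genes failed the filter, and 7 of them were at 0 in every library. The highest, HOXA7, was at 0.0361 and 0 FPKM in esiFLI1, 0 in both esiUSP9X libraries and 0.00751 and 0.0419 in esiGFP. HOXA11 was above 0 only in esiGFP 2, at 0.0180 FPKM, and HOXA2 only in esiGFP 1, at 0.00746 FPKM. The noncoding RNAs of the cluster were at 0 as well, which holds for HOTAIRM1 at its anterior end and HOTTIP at its posterior end, and for HOXA-AS3, HOXA10-AS and HOXA11-AS. The summed HOXA level reached at most 0.0599 FPKM in a library, against 166 to 219 FPKM for HOXD. The genes on either side of HOXA were not all listed at 0. HIBADH and TAX1BP1 had at least 14.6 and 37.0 FPKM in every library, while the homeobox gene EVX1, next to HOXA13, was at 0 in all 6.

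HOXD carried most of the HOX RNA, and within it the posterior end with HOXD8. HOXD8, HOXD9, HOXD10, HOXD11 and HOXD13 together held 61.5% to 66.8% of the summed FPKM of the 38 genes in each library. Of all 38 genes 6 had at least 10 FPKM in all 6 libraries, these 5 and HOXB7. HOXD11, which shapes the forearm and kidney in mice, was the highest of the family, at 62.4 and 36.8 FPKM in esiFLI1, 61.5 and 43.8 in esiUSP9X and 66.3 and 44.2 in esiGFP. Its mean of 55.2 FPKM in esiGFP was above that of 86% of the 12169 genes kept. HOXD8 followed at 30.7 and 39.9 FPKM in esiFLI1, 43.8 and 48.9 in esiUSP9X and 46.6 and 54.9 in esiGFP. HOXD8 was the higher in replicate 2 of each group, and HOXD11 in replicate 1. HOXD13, a digit gene whose mutations cause synpolydactyly in humans, was at 35.2 and 30.4 FPKM in esiFLI1, 44.2 and 42.0 in esiUSP9X and 33.9 and 32.6 in esiGFP. HOXD11 and HOXD8 did not differ beyond their spread in esiGFP, since both HOXD8 levels lay between the HOXD11 levels.

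HOXD12 was listed at or near 0 between high neighbours. HOXD12 lies between HOXD11 and HOXD13 and was at 0 and 0.0388 FPKM in esiFLI1, 0 and 0.0633 in esiUSP9X and 0.212 and 0.0654 in esiGFP. Both neighbours were at 30.4 FPKM or more in every library. Further towards the anterior end, HOXD4 was at 3.39 to 7.89 FPKM, HOXD3 at 0.735 to 1.83 and HOXD1 at 0.535 or less. EVX2, the homeobox gene beyond HOXD13, was also near 0, at 0 to 0.112 FPKM. On the other side of the cluster, beyond HOXD1, the mitochondrial import gene MTX2 was at 40.2 to 51.5 FPKM.

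HOXB and HOXC were expressed at lower levels over most of their length. The summed HOXB level was 53.5 to 76.8 FPKM per library and the summed HOXC level 21.2 to 41.0. HOXB7, a group 7 gene studied in melanoma and breast cancer, led HOXB, at 27.3 and 29.8 FPKM in esiFLI1, 23.9 and 24.1 in esiUSP9X and 27.0 and 27.7 in esiGFP. HOXB2, a hindbrain gene in mice, was at 17.6 and 8.04 FPKM in esiFLI1, 16.98 and 9.65 in esiUSP9X and 18.1 and 10.1 in esiGFP. HOXB13, a prostate lineage gene at the far posterior end, was at 7.11 and 4.71 FPKM in esiFLI1, 7.88 and 5.19 in esiUSP9X and 7.48 and 3.98 in esiGFP. In both HOXB2 and HOXB13 replicate 1 was above replicate 2 in every group, and the groups overlap. Beside HOXB13, the small nuclear protein gene PRAC1 reached 42.4 to 93.5 FPKM. At the anterior end HOXB1 was at 0 in all 6 libraries. In HOXC the gene with the highest mean over all libraries was HOXC6, which HOXC10 exceeded in the mean of esiUSP9X. HOXC6 was at 11.3 and 5.64 FPKM in esiFLI1, 9.93 and 7.77 in esiUSP9X and 10.6 and 7.27 in esiGFP. HOXC4, HOXC5 and HOXC6 can be transcribed from a shared start, and the RefSeq window of HOXC4 and HOXC5 is the same (chr12:54016638-54016937, plus strand), so the split of their reads is uncertain.

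Among the other expressed genes, HOXD9, a limb and lumbar gene in mice, was at 16.3 to 35.5 FPKM over the 6 libraries, with replicate 1 of each group at 31.2 FPKM or more and replicate 2 at 19.8 or less. HOXB4 was at 4.23 to 7.26 FPKM and HOXB3, which acts with its neighbours in the hindbrain of mice, at 3.79 to 6.80 FPKM. HOXC11 was at 0.598 to 1.54 FPKM and HOXC12 at 0.193 to 1.87 FPKM. Summed over clusters, paralog group 12 reached at most 1.87 FPKM in a library, while its neighbours reached at least 37.4 FPKM (group 11) and 36.2 FPKM (group 13) in every library. HOXD11 and HOXD13 carried most of these neighbouring sums, and in HOXC the ranges of HOXC11 and HOXC12 overlap.

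In all, 23 of the 38 genes passed the filter, 8 of HOXB, 8 of HOXC and 7 of HOXD, and each had a library at 1 FPKM or more in all 3 groups. HOXC12 came closest to failing, with 3 libraries at 1 FPKM. The 15 that did not pass were the 10 HOXA genes, HOXB1, HOXB5, HOXC5, HOXD1 and HOXD12. HOXB5 and HOXC5 each reached 1 FPKM in a single library, at 1.41 and 1.36 FPKM, both in esiFLI1 1. By position, 3 of 7 anterior, 9 of 15 central and 11 of 16 posterior genes passed. Posterior genes held 53.9% to 61.2% of the summed HOX level, central genes 30.6% to 40.3% and anterior genes 5.62% to 8.26%.

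Most HOX genes were higher in replicate 1 than in replicate 2 of the same group. Of the 23 genes, 19 (82.6%) were higher in replicate 1 in all 3 groups, against 47.3% of all genes kept. The median difference, replicate 1 minus replicate 2, was 0.46 on the log2(FPKM + 1) scale for HOX genes and 0.09 for all genes. HOXB7 and HOXD8 were the genes that were higher in replicate 2 in all 3 groups (8.7% of the 23, against 35.8% of all genes kept). The HOX transcripts also had a higher GC content, with a median of 55.7% against 47.8% over the kept genes, and the part of GC content in the replicate difference was not tested. Same-numbered libraries deviated together over all genes, so limma's fit of 3 group means and limma's blocked fit, which adds the replicate number, were both run. For some genes only the value of the blocked fit is given.

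**Figure D1:**
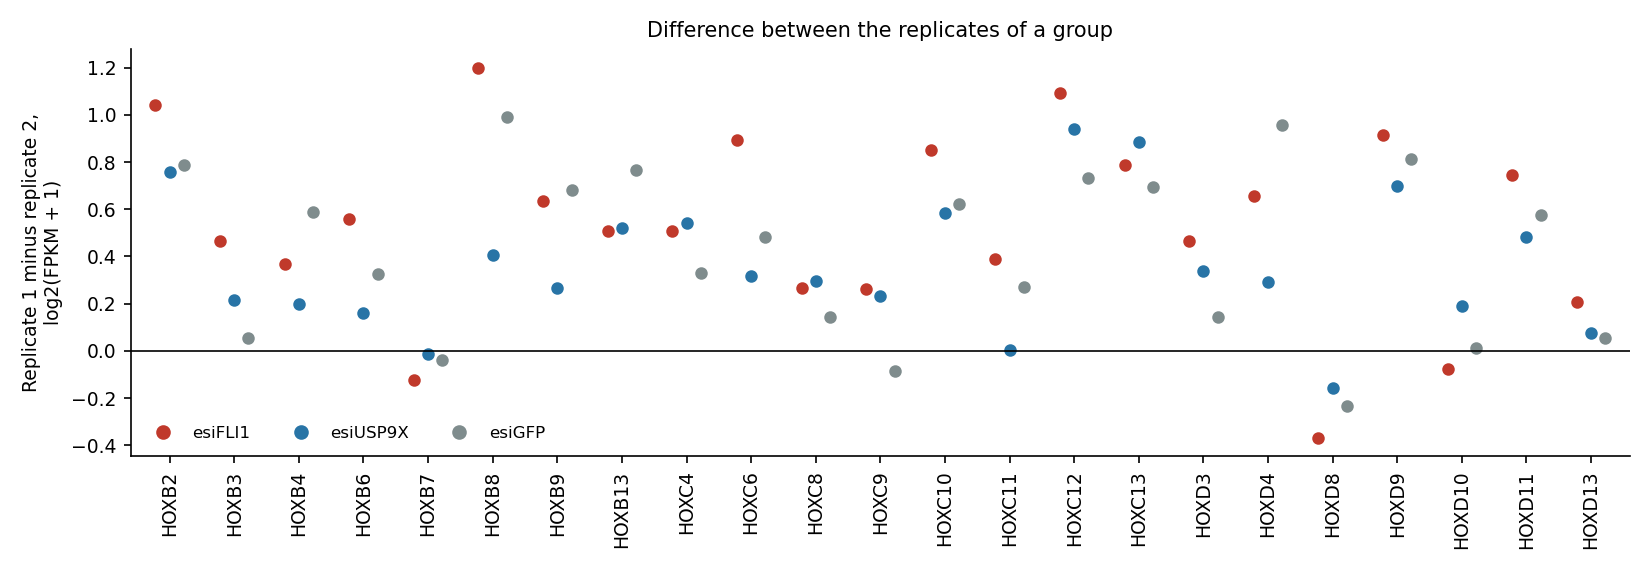
Replicate 1 minus replicate 2 on the log2(FPKM + 1) scale for each of the 23 genes (points: 1 per group). Most points lie above 0, and the HOXB7 and HOXD8 points lie below 0 in all 3 groups.

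**Figure D2:**
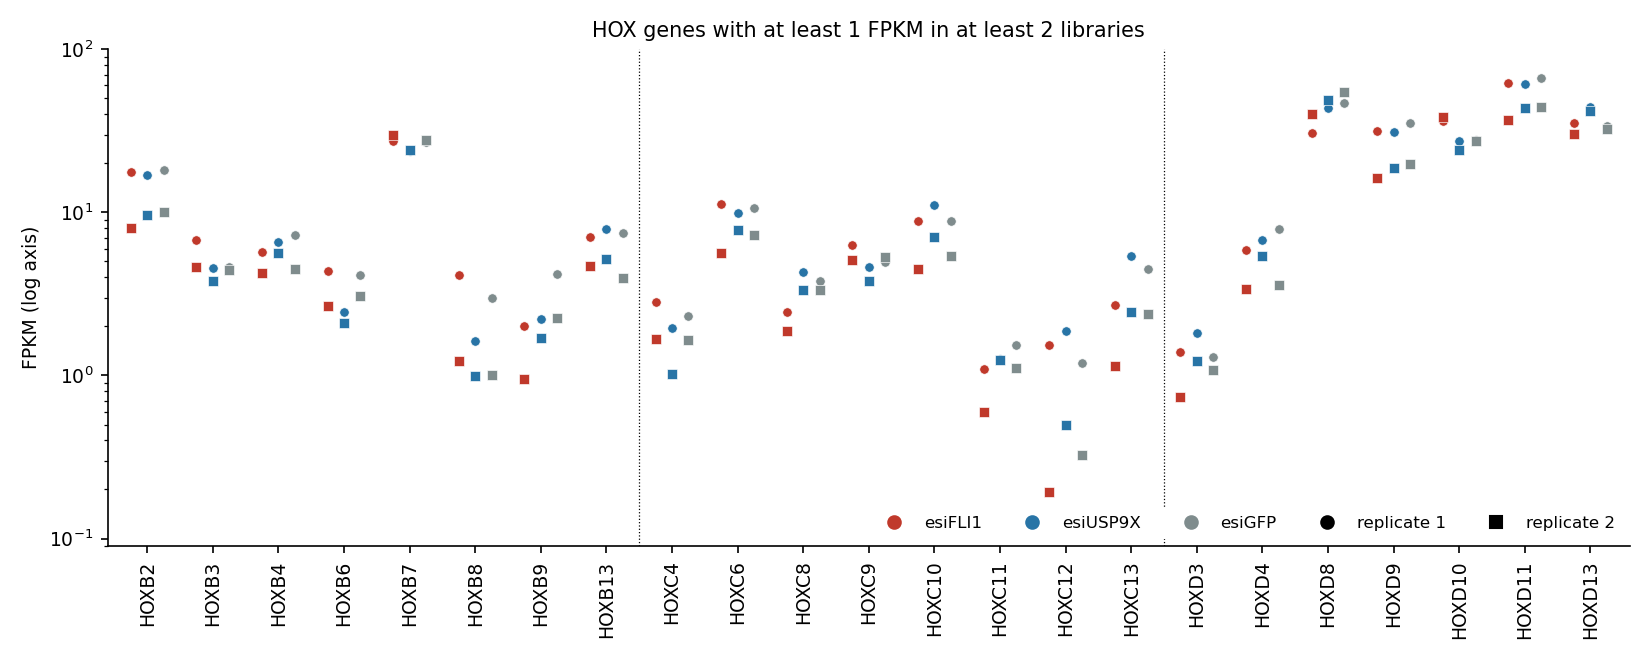
FPKM of the 23 HOX genes in each of the 6 libraries, on a log axis, with dotted lines between HOXB, HOXC and HOXD. HOXD8 to HOXD11, HOXD13 and HOXB7 lie between 16.3 and 66.3 FPKM in all libraries.

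When EWS-FLI1 was knocked down, single HOX genes changed in both directions. In esiFLI1 against esiGFP, HOXB9, HOXC8, HOXC13 and HOXD8 fell and HOXD10 rose in limma's blocked fit (Benjamini-Hochberg adjusted p under 0.05). That is 5 of 23 genes (21.7%), against 42.1% of all genes in this fit. Of the 23, 1 was higher and 4 were lower, where 20.6% of all genes were higher and 21.6% lower. With median-ratio scaling, which puts the median change of all genes at -0.10, the blocked fit called 1 HOX gene higher and 5 lower, and 38.6% of the calls over all genes were higher, against 48.8% without that scaling. With the GC correction it called 2 higher and 4 lower, and 3012 higher and 3132 lower of all 11470 genes then tested. Without the block limma called 0 of 23, against 2.81% of all genes, and 1 of 23 (4.35%) had an unadjusted p under 0.05, against 15.8% of all genes. The libraries of the groups did not overlap for 5 of 23 genes (21.7%), against 37.1% of all genes. Within the replicate numbers, 11 of the 23 genes were lower in esiFLI1 in both, 5 were higher in both and 7 went opposite ways. This count was not made over all genes, so it shows no trait of the HOX genes. On the log2(FPKM + 1) scale 0 of the 23 genes changed by 2-fold or more, against 7.06% of all genes. In FPKM itself HOXB9 did, with an esiFLI1 mean 2.17-fold below that of esiGFP. The median log2 change was -0.11 over the 23 genes and -0.03 over all genes. In bulk RNA, fewer cells of a type and less RNA per cell cannot be told apart.

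HOXD8, the most abundant of the called genes in esiGFP, fell. Both esiFLI1 libraries (30.7 and 39.9 FPKM, mean 35.3 ± 6.50, SD, n = 2) lay below both esiGFP libraries (46.6 and 54.9 FPKM, mean 50.7 ± 5.86). The log2 change was -0.52 with a blocked SE of 0.099 and an adjusted p of 0.00494 in limma's blocked fit, while limma's fit without the block gave SE 0.21 and adjusted p = 0.339. Over the 10 blocked settings tried, the adjusted p of HOXD8 ranged from 0.00228 to 0.039, so the blocked call held in each of them.

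HOXD10, which lies in the same cluster and is mutated in congenital vertical talus, went the other way. It was at 36.4 and 38.5 FPKM in esiFLI1 (37.4 ± 1.46, SD, n = 2), against 27.6 and 27.4 FPKM in esiGFP (27.5 ± 0.186). Both esiFLI1 libraries were thus above both esiGFP libraries. Its log2 change was 0.43 (blocked SE 0.10), with adjusted p = 0.0133 in limma's blocked fit and 0.326 in limma's other fit. In limma the blocked call was lost without esiFLI1 2 (adjusted p = 0.102) and without esiGFP 1 (0.0585), the highest values of a range that began at 0.00594. The genes on either side were not called in either fit. HOXD9 had a log2 change of -0.22 (95% interval in limma's blocked fit -0.45 to 0.02) and HOXD11 one of -0.17 (-0.41 to 0.07). That of HOXD13 was -0.02 (-0.25 to 0.20), and it was not called either.

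HOXC13 and HOXC8 fell in HOXC. HOXC13, a hair and nail gene, was at 2.70 and 1.14 FPKM in esiFLI1 (1.92 ± 1.10, SD, n = 2) and at 4.49 and 2.397 FPKM in esiGFP (3.44 ± 1.48). Its group ranges overlap, but within each replicate number the esiFLI1 library was the lower. The log2 change was -0.62 (blocked SE 0.11), with adjusted p = 0.00417 in limma's blocked fit, 0.0013 to 0.0418 over the blocked settings and 0.635 without the block. HOXC8, which patterns the thoracic skeleton and brachial motor neurons in mice, was at 2.45 and 1.87 FPKM in esiFLI1 (2.16 ± 0.411, SD, n = 2) and at 3.78 and 3.33 FPKM in esiGFP (3.56 ± 0.316), with no overlap. Its log2 change was -0.53 (blocked SE 0.11), with adjusted p = 0.00725 in limma's blocked fit and 0.297 without the block. That call was lost without esiFLI1 2 (0.0585) and without esiGFP 2 (0.0536), and the lowest blocked value was 0.00227.

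HOXB9, a thoracic gene that shapes the ribs in mice, had the largest log2 change of the 23 genes in this comparison. It was at 2.02 and 0.948 FPKM in esiFLI1 (1.49 ± 0.760, SD, n = 2) and at 4.20 and 2.24 FPKM in esiGFP (3.22 ± 1.39). Both esiFLI1 libraries were below both esiGFP libraries. The log2 change was -0.76 (blocked SE 0.14), with adjusted p = 0.00412 in limma's blocked fit and 0.374 without the block. Leaving out esiFLI1 2 ended the blocked call (0.0631), and the lowest blocked value was 6.96e-05. The abundant HOXB7 was not called, with a log2 change of 0.06 and a blocked interval of -0.16 to 0.28.

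By position, the blocked calls in esiFLI1 were 0 of 3 anterior, 2 of 9 central (both lower) and 3 of 11 posterior genes (1 higher, 2 lower). By cluster they were 1 of 8 in HOXB (lower), 2 of 8 in HOXC (both lower) and 2 of 7 in HOXD (1 higher, 1 lower). Each of these shares, by position and by cluster, was under the 42.1% of all genes that this fit called. The summed central level was 97.6 and 91.5 FPKM in esiFLI1 and 114 and 108 FPKM in esiGFP, without overlap. HOXD8 carried most of this difference, since without it the central sum was 66.9 and 51.6 FPKM in esiFLI1 and 67.6 and 53.3 FPKM in esiGFP, with overlap. The summed posterior level was 195 and 139 FPKM in esiFLI1 and 196 and 145 FPKM in esiGFP, where the ranges overlap. For the sums over genes no test was made. Sums of cell type markers differed in the same comparison. The 10 Ewing sarcoma markers summed to 179 and 219 FPKM in esiFLI1 and 399 and 464 in esiGFP, with CD99 at 0. FLI1, the target of the knockdown, is among these 10, so this sum does not separate cell type from the knockdown. The 6 muscle markers summed to 134 and 95.04 FPKM in esiFLI1 and 71.1 and 69.8 in esiGFP, where ACTA2 and CNN1 passed the filter and MYOD1 was at 0 in all libraries. ACTA2 alone was at 129 and 91.9 FPKM in esiFLI1 and 70.3 and 69.5 in esiGFP. The 6 endothelial markers summed to 28.6 and 51.3 FPKM in esiFLI1 and 18.6 and 22.6 in esiGFP, where EMCN and KDR passed. EMCN alone was at 27.1 and 49.8 FPKM in esiFLI1 and 18.4 and 22.5 in esiGFP. PECAM1, VWF, CDH5 and TEK reached at most 0.169 FPKM in a library. The part of these markers in the HOX changes was not tested.

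**Figure D3:**
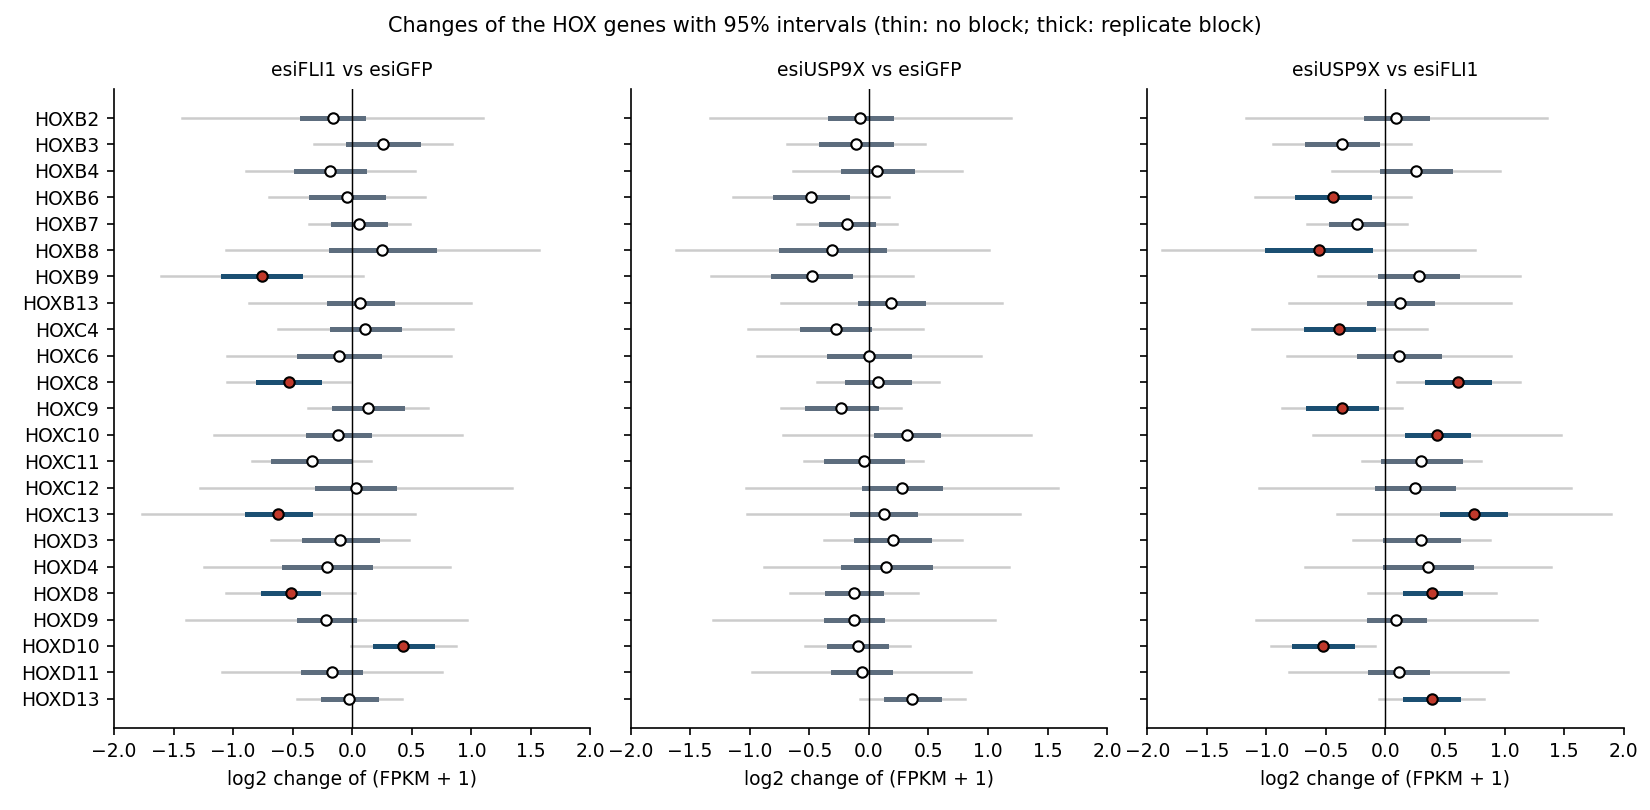
Log2 change of FPKM + 1 for the 23 HOX genes in each comparison, with 95% intervals of limma's fit without a block (thin) and with the replicate block (thick). Filled points are called in the blocked fit, 5 in esiFLI1 against esiGFP, 0 in esiUSP9X against esiGFP and 10 in esiUSP9X against esiFLI1.

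In esiUSP9X against esiGFP, 0 of 23 HOX genes were called in limma's fits with and without the block. These fits called 0.238% and 0.0247% of all genes. All 3 genes that limma called without the block, EEF1A1 among them, and 4 of the 29 called with it are listed at 0 in both libraries of a group. At an unadjusted p under 0.05 there were 4 of 23 HOX genes (17.4%) with the block, against 10.9% of all genes, and 0 without it, against 0.937%. The libraries of the groups did not overlap for 5 genes (21.7%), against 16.6% of all genes, and the median log2 change was -0.06 over HOX genes and -0.01 over all genes. HOXD13 was at 44.2 and 42.0 FPKM in esiUSP9X (43.1 ± 1.59, SD, n = 2) and at 33.9 and 32.6 in esiGFP (33.3 ± 0.891), with no overlap. Its log2 change was 0.36 (blocked interval 0.14 to 0.59), which did not pass (adjusted p = 0.265 in limma's blocked fit, 1 in limma's other fit, and 0.099 to 1 over all settings tried).

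HOXB6, a forelimb mesoderm gene in mice, was at 2.45 and 2.09 FPKM in esiUSP9X and at 4.12 and 3.08 in esiGFP, also without overlap. Its log2 change of -0.49 had a blocked adjusted p of 0.266 (range over settings 0.118 to 1, limma). HOXB9 was at 2.23 and 1.69 FPKM in esiUSP9X and at 4.20 and 2.24 in esiGFP, and its log2 change of -0.48 had a blocked adjusted p of 0.294 in limma (0.0864 to 1). HOXC10, a lumbar motor neuron gene in mice, was at 11.2 and 7.11 FPKM in esiUSP9X and at 8.88 and 5.41 in esiGFP, with a log2 change of 0.32 and a blocked adjusted p of 0.372 in limma (0.121 to 1). These 4 genes had the unadjusted values under 0.05. Among the others, the log2 change was -0.12 for HOXD8 (blocked interval -0.35 to 0.10), -0.10 for HOXD10 (-0.34 to 0.15), -0.06 for HOXD11 (-0.30 to 0.18) and -0.18 for HOXB7 (-0.40 to 0.04). A missed threshold does not show that these levels were alike.

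Set against each other, esiUSP9X and esiFLI1 differed in 10 of 23 HOX genes in limma's blocked fit, 5 higher and 5 lower in esiUSP9X, against 20.2% of all genes higher and 20.9% lower. The share of 43.5% is near the 41.1% that the fit called among all genes. Without the block limma called 0 of 23, against 3.08% of all genes, with 2 (8.70%) at an unadjusted p under 0.05, against 15.9% of all genes. The split depends on the scaling, since the blocked fit on quantile-normalized values called 11 higher and 1 lower. Of all 12169 genes that fit called 2662 higher and 2201 lower. The groups did not overlap for 9 genes (39.1%), against 39.5% of all genes.

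HOXC13 was higher in esiUSP9X, at 5.39 and 2.46 FPKM, than in esiFLI1, at 2.70 and 1.14 FPKM. The log2 difference was 0.74 (blocked SE 0.11, adjusted p = 0.00187 in limma's blocked fit, 0.55 without the block). HOXC8 was at 4.32 and 3.33 FPKM in esiUSP9X and at 2.45 and 1.87 in esiFLI1, without overlap, with a log2 difference of 0.61 (blocked SE 0.11, adjusted p = 0.00405 in limma's blocked fit, 0.232 without the block). Over the 10 blocked settings both calls held, with adjusted p up to 0.0294 for HOXC13 and 0.0459 for HOXC8.

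HOXD10 was at 27.5 and 24.0 FPKM in esiUSP9X, below its 36.4 and 38.5 FPKM in esiFLI1 (log2 difference -0.52, adjusted p = 0.00596 in limma's blocked fit). HOXD8 was at 43.8 and 48.9 FPKM in esiUSP9X, above its 30.7 and 39.9 in esiFLI1 (0.39, adjusted p = 0.0158, limma's blocked fit). HOXD13 was at 44.2 and 42.0 FPKM in esiUSP9X, above its 35.2 and 30.4 in esiFLI1 (0.39, adjusted p = 0.015, limma's blocked fit). All 3 differences were without overlap between the groups, but each call was lost when certain libraries were left out. For HOXD10 these were esiFLI1 2 (0.061) and esiUSP9X 2 (0.0713). For HOXD8 they were esiFLI1 1 (0.0845), esiUSP9X 1 (0.14) and esiUSP9X 2 (0.0554), and for HOXD13 esiFLI1 2 (0.09), esiUSP9X 1 (0.0774) and esiUSP9X 2 (0.11).

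The other 5 called differences had larger p-values. HOXC10 was at 11.2 and 7.11 FPKM in esiUSP9X and at 8.87 and 4.47 in esiFLI1 (log2 difference 0.44, adjusted p = 0.0168 in limma's blocked fit). HOXB6 was at 2.45 and 2.09 FPKM in esiUSP9X and at 4.39 and 2.66 in esiFLI1 (-0.44, 0.0283). HOXB8, which acts in microglia and grooming behaviour in mice, was at 1.63 and 0.987 FPKM in esiUSP9X and at 4.11 and 1.23 in esiFLI1 (-0.56, 0.0447), with 2.99 and 1.01 in esiGFP. In HOXC10 and HOXB8 the groups overlap, and in HOXB6 they do not. HOXC4, which also acts in antibody class switching of B cells, was at 1.95 and 1.02 FPKM in esiUSP9X and at 2.82 and 1.68 in esiFLI1 (-0.39, 0.035), with 2.32 and 1.65 in esiGFP and with overlap. HOXC9, a thoracic motor neuron gene in mice, was at 4.65 and 3.803 FPKM in esiUSP9X and at 6.34 and 5.12 in esiFLI1 (-0.36, 0.0485), without overlap, and at 4.93 and 5.30 in esiGFP. All 5 p-values are adjusted values of limma's blocked fit, and each call was lost when certain libraries were left out. For HOXC10 these were esiFLI1 2 (0.114), esiUSP9X 1 (0.0576) and esiUSP9X 2 (0.135), and for HOXB6 they were esiFLI1 1 (0.182) and esiUSP9X 1 (0.224). For HOXB8 they were esiFLI1 1 (0.344), esiFLI1 2 (0.0658) and esiUSP9X 1 (0.382), and without the block the log2 difference of HOXB8 came to as much as 0.0391 with 1 library left out. HOXC4 and HOXC9 lost their calls without any of the 4 esiUSP9X and esiFLI1 libraries, with adjusted p of 0.0981 to 0.191 for HOXC4 and 0.0995 to 0.256 for HOXC9. Quantile normalization ended the blocked calls of HOXB6 (0.137), HOXB8 (0.145), HOXC4 (0.334) and HOXC9 (0.144), and median-ratio scaling that of HOXC9 (0.0709).

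Several DNA-binding cofactors of HOX proteins rose in esiFLI1 in limma's blocked fit, at a total share of calls near that of all genes. Of 11 TALE genes 10 passed the filter. The blocked fit called 4 higher and 1 lower in esiFLI1 against esiGFP (50%, against 42.1% of all genes). Of all genes it called 20.6% higher and 21.6% lower. The fit without the block called 0, against 2.81% of all genes, with 3 (30%) at an unadjusted p under 0.05, against 15.8% of all genes. The median log2 change was 0.23 over these 10 genes. PBX3, a DNA-binding partner of HOX proteins, was at 2.07 and 3.07 FPKM in esiFLI1, 1.15 and 1.09 in esiUSP9X and 0.648 and 0.885 in esiGFP, a rise of 1.004 in esiFLI1 on the log2 scale (adjusted p = 0.00133, limma's blocked fit). That call held over the 10 blocked settings, with adjusted p up to 0.0316 in limma, and both esiFLI1 libraries were above both esiGFP libraries.

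MEIS3 rose in esiFLI1 by 1.40 (adjusted p = 0.00118, limma's blocked fit), with 10.6 and 4.78 FPKM in esiFLI1 against 3.92 and 0.959 in esiGFP, and its blocked adjusted p was at most 0.0363. PKNOX2 rose by 0.63 (0.00631, limma's blocked fit), with 1.33 and 1.02 FPKM in esiFLI1 against 0.475 and 0.338 in esiGFP. PKNOX2 lost its blocked call without esiFLI1 1 (0.052) and with quantile normalization (0.0667). The gene called lower was TGIF2, a repressor of the TALE class that was named after its values were seen, at 15.3 and 8.24 FPKM in esiFLI1 against 18.8 and 14.3 in esiGFP. MEIS1, the most abundant MEIS gene, was at 12.9 and 13.7 FPKM in esiFLI1, 12.8 and 15.0 in esiUSP9X and 12.1 and 14.7 in esiGFP, and its groups overlap. In esiUSP9X against esiGFP limma called 0 of the 10 TALE genes in either fit, with 0 at an unadjusted p under 0.05 in both. Of all genes limma called 0.238% with the block and 0.0247% without it. At the unadjusted p there were 10.9% and 0.937%.

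Of the noncoding RNAs transcribed within the clusters, HAGLR rose in esiFLI1. HAGLR is a long noncoding RNA that starts beside HOXD1 and runs the other way. It was at 4.16 and 3.98 FPKM in esiFLI1 (4.07 ± 0.125, SD, n = 2), 2.21 and 1.97 in esiUSP9X and 1.89 and 1.37 in esiGFP (1.63 ± 0.365). It rose in esiFLI1 by 0.96 (blocked SE 0.12, adjusted p = 0.000741 in limma's blocked fit, 0.0668 without the block), and over the blocked settings its adjusted p was at most 0.0223 in limma. HOXD1 itself, under the filter, was at 0.535 and 0.366 FPKM in esiFLI1, 0.206 and 0.260 in esiUSP9X and 0.195 and 0.0271 in esiGFP. Both esiFLI1 values of HOXD1 were the highest. The RefSeq window of HOXD1 (chr2:176188418-176188717, plus strand) overlaps a HAGLR window (chr2:176188523-176188822, minus strand), and the sources used here do not say whether counting used the strand. Overlap of these 2 windows alone does not show shared reads, since transcripts from these 2 starts run away from each other. A further HAGLR window (chr2:176188909-176189208, minus strand) lies beyond that of HOXD1. A transcript from its start runs back across the HOXD1 start and so overlaps HOXD1 on the other strand. Whether reads of the pair were mixed was not tested.

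Limma's blocked fit called 2 of the 6 cluster RNAs that passed the filter, of 21 listed (33.3%, against 42.1% of all genes). The other was HOXD-AS2, which fell by 0.34 on the log2 scale (adjusted p = 0.0414, limma's blocked fit, 0.0147 to 0.259 over the blocked settings), with 6.09 and 2.46 FPKM in esiFLI1 against 7.54 and 3.62 in esiGFP. Leaving out any of the 6 libraries ended that call (0.0535 to 0.201), and without the block its log2 change then ranged from -0.86 to 0.17. In esiUSP9X against esiGFP 0 of the 6 were called in either fit by limma, with 0 at an unadjusted p under 0.05 in both. Among all genes 0.238% were called with the block and 0.0247% without it. At the unadjusted p there were 10.9% and 0.937%. HOTAIR, the noncoding RNA of HOXC, was at 0.521 to 1.16 FPKM and did not pass. The 6 microRNA genes of the clusters, of the MIR10, MIR196 and MIR615 families, were listed at 0, in libraries of total RNA.

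Of 19 non-HOX genes that flank the clusters and passed the filter, limma's blocked fit called 4 higher and 3 lower in esiFLI1 against esiGFP (36.8%, against 42.1% of all genes). Without the block limma called 0 of these 19, against 2.81% of all genes. HIBADH, an enzyme of valine breakdown beside HOXA, was at 29.6 and 29.4 FPKM in esiFLI1, 17.8 and 16.4 in esiUSP9X and 15.6 and 14.6 in esiGFP, a rise of 0.92 in esiFLI1 (adjusted p = 0.000334 in limma's blocked fit, 0.0666 without the block). CALCOCO1, beside HOXC, was at 15.5 and 10.8 FPKM in esiFLI1, 5.06 and 4.32 in esiUSP9X and 5.18 and 4.22 in esiGFP, a rise of 1.30 (adjusted p = 0.000171 in limma's blocked fit, 0.0693 without the block). CBX5, the heterochromatin protein HP1 alpha, also beside HOXC, was at 44.7 and 46.6 FPKM in esiFLI1, 30.0 and 29.9 in esiUSP9X and 31.1 and 33.1 in esiGFP, a rise of 0.49 (0.00464 in limma's blocked fit, 0.232 without the block). These 3 calls held over the 10 blocked settings, with adjusted p up to 0.0127 for HIBADH, 0.00778 for CALCOCO1 and 0.0401 for CBX5 in limma.

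By cluster, these blocked calls in limma were 1 of 2 beside HOXA, 1 of 6 beside HOXB, 2 of 5 beside HOXC and 3 of 6 beside HOXD. The same fit called 42.1% of all genes. Beside HOXB, the ATP synthase subunit gene ATP5G1 fell by 0.50 (0.0113, limma's blocked fit). Beside HOXD, the related ATP5G3 fell by 0.42 (0.0133), the RNA-binding protein gene HNRNPA3 fell by 0.40 (0.0175) and CHN1, a Rac GTPase-activating protein gene, rose by 0.38 (0.0306), all in limma's blocked fit. These last 4 calls were each lost in limma when certain libraries were left out, and in fits without the block the log2 changes of ATP5G1 and HNRNPA3 then reached 0.0166 and 0.0110. For ATP5G1 these were esiFLI1 2 (adjusted p = 0.0844) and esiGFP 2 (0.0653), and for CHN1 esiFLI1 1, esiFLI1 2 and esiGFP 1 (0.131 to 0.329, limma). For ATP5G3 (0.0596 to 0.166) and HNRNPA3 (0.0762 to 0.192) they were esiFLI1 1, esiFLI1 2 and esiGFP 2. Quantile normalization also ended the blocked call of HNRNPA3 (0.0868), and median-ratio scaling that of CHN1 (0.0562).

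**Figure D4:**
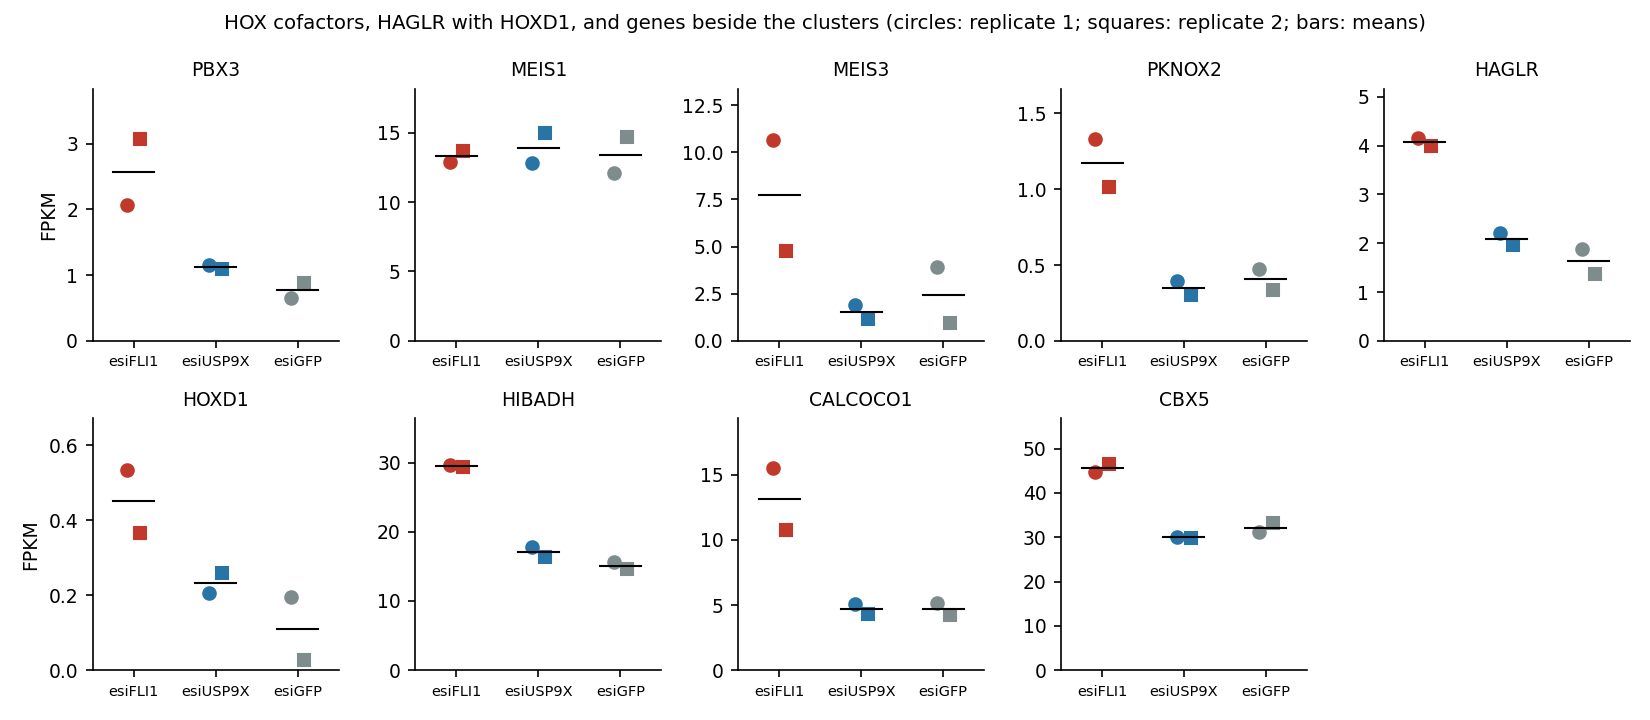
FPKM per library of HOX cofactors (PBX3, MEIS1, MEIS3, PKNOX2), of HAGLR with HOXD1, and of genes beside HOXA (HIBADH) and HOXC (CALCOCO1, CBX5), with bars at group means. In all but MEIS1 both esiFLI1 libraries lie above both esiGFP libraries.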

How the data were processed

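RNA of 6 libraries of A673 cells was sequenced. Per the labels' protocols, libraries were made from 2 µg of total RNA with a stranded, ribosomal RNA depleting kit and read as 75 nt single ends. FPKM values per gene symbol were deposited by the authors, and the submitters' processing notes name TopHat, Cufflinks, Cuffdiff, hg19 and GRCh37. Their versions, the annotation and the strand setting of the counting are not stated there. Read counts were not used here. A search for whole-read steps among values under 0.05 FPKM gave no depth, since the fullest bin of 0.01 in the log2 ratios held 4.09% of genes, so no counting intervals are given.

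A gene was kept if 2 or more libraries had 1 FPKM or more (12169 of 25268 symbols), 1 stray line was dropped, and 107 kept genes were listed at 0 in at least 1 library. Values were tested as log2(FPKM + 1) in limma 3.58.1 (R 4.3.3, trended empirical Bayes, two-sided) with 3 group means over all 6 libraries, and p-values were adjusted by Benjamini-Hochberg over all kept genes. The added 1 makes the changes of low genes appear smaller than they are. The method was tested on simulated data. A call has an adjusted p under 0.05. With 2 libraries against 2, an exact permutation test of a single value cannot go below 0.333, so none was used.

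The labels number the libraries 1 and 2 in each group without saying what a number marks. Deviations from group means correlated between same-numbered libraries at 0.647 (esiFLI1 and esiGFP), 0.589 (esiUSP9X and esiGFP) and 0.644 (esiUSP9X and esiFLI1) over 12169 genes. The pairing was accepted from these data, not from the design, and limma's blocked fit adds the replicate number. It has 2 residual degrees of freedom, against 3 without the block. Nothing says that libraries came from separate cultures, so p-values measure the spread between these libraries, which may be technical.

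HOX genes were named with values in every library where called in either fit or among the 3 highest of a cluster. Of each other list, the called genes were named, up to 4, and some genes under this rule are not reported here. The members and lists were chosen with earlier results of these data known. Alternatives were another pseudocount, other filters, quantile and median-ratio scaling, the block and leaving out each library. A correction for transcript GC content, and its combination or that of either scaling with the block, were chosen after seeing the data. Promoter windows were taken from RefSeq tables of GRCh38.p14.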

Additional observations from a re-analysis of the deposited data

How the results depend on the processing

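The calls rest on the replicate block. With the replicate block, HOX genes called in esiFLI1 against esiGFP numbered 1 higher and 4 lower (0 and 0 without it), and in esiUSP9X against esiFLI1 5 higher and 5 lower (0 and 0). All genes called numbered 5125 with the block and 342 without in esiFLI1 against esiGFP, 29 and 3 in esiUSP9X against esiGFP, and 4996 and 375 in esiUSP9X against esiFLI1. In esiUSP9X against esiGFP 0 HOX genes were called under every setting run in limma. For the blocked calls and for these counts the cause of a change with the setting was not tested, except that fewer or more genes are tested under another filter.

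Adding quantile normalization to the block gave 1 higher and 5 lower HOX genes in esiFLI1 against esiGFP and 11 higher and 1 lower in esiUSP9X against esiFLI1, with 4710, 34 and 4863 genes called in all in esiFLI1 against esiGFP, esiUSP9X against esiGFP and esiUSP9X against esiFLI1. Median-ratio scaling with the block gave 1 and 5, then 5 and 4, with 5552, 34 and 5433 genes in all. The GC correction with the block gave 2 and 4, then 5 and 7, with 6144, 19 and 6111 genes in all. Without the block, the GC correction gave 1 and 2 in esiFLI1 against esiGFP (HOXD10, and HOXB9 with HOXC8) and 3 and 3 in esiUSP9X against esiFLI1, with 2659 and 2663 genes in all. No filter gave 558 genes in all in esiFLI1 against esiGFP, and a filter of 5 FPKM gave 139 there and 154 in esiUSP9X against esiFLI1.

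Leaving out 1 library at a time, with and without the block, gave 0 to 1 higher and 0 to 4 lower HOX genes in esiFLI1 against esiGFP and 0 to 6 higher and 0 to 6 lower in esiUSP9X against esiFLI1. All genes called ranged from 2 to 4670 in esiFLI1 against esiGFP, 3 to 271 in esiUSP9X against esiGFP and 3 to 5378 in esiUSP9X against esiFLI1. The group left with 1 library was assumed to vary like the others. The pseudocount of 0.1 and the other filters were not run with the block.

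Some log2 changes, of genes called in the blocked fit too, changed sign with the setting. In esiFLI1 against esiGFP, HOXD13 came to 0.0507 with quantile normalization, HOXB7 to -0.0151 with median-ratio scaling and HOXD11 to 0.0402 with the GC correction, and HOXD11 in esiUSP9X against esiGFP came to 0.0203 with the GC correction, each with and without the block. With 1 library left out, with and without the block, the range in esiFLI1 against esiGFP was -0.54 to 0.20 for HOXD11, -0.13 to 0.080 for HOXD13, -0.0018 to 0.12 for HOXB7, -0.86 to 0.17 for HOXD-AS2, -1.01 to 0.0166 for ATP5G1, -0.81 to 0.0110 for HNRNPA3 and -0.88 to 0.0360 for CBX2. In esiUSP9X against esiGFP it was -0.35 to 0.23 for HOXD11 and -0.21 to 0.0167 for HOXD10, and in esiUSP9X against esiFLI1 -1.16 to 0.0391 for HOXB8. Of these, HOXD-AS2, ATP5G1, HNRNPA3, CBX2 and HOXB8 were called in limma's blocked fit, and they changed sign only in fits without the block. The summed levels of the 4 clusters moved by less than the spread between replicates under the settings run for them. The unknown read depth limits what can be said of genes listed at or near 0.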

Other observations

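Several genes that make, carry and sense retinoic acid, which induces HOX clusters in embryos, rose in esiFLI1 against esiGFP. Of 26 listed upstream regulators and retinoic acid genes 19 passed the filter. Limma called 3 higher and 0 lower without the block (15.8%, against 2.81% of all genes). Its blocked fit called 9 higher and 2 lower (57.9%, against 42.1% of all genes). In that fit 20.6% of all genes were higher and 21.6% lower. CRABP2, which carries retinoic acid to its receptors, was at 22.9 and 11.9 FPKM in esiFLI1, 1.98 and 1.08 in esiUSP9X and 1.94 and 0.738 in esiGFP, a log2 change of 2.96 in esiFLI1 (adjusted p = 0.0375 without the block, limma). RARB, a retinoic acid receptor, was at 2.12 and 2.82 FPKM in esiFLI1, 0.107 and 0.153 in esiUSP9X and 0.143 and 0.170 in esiGFP (1.58, adjusted p = 0.0146, limma). RDH10, which makes retinaldehyde, was at 4.34 and 5.58 FPKM in esiFLI1, 1.59 and 1.79 in esiUSP9X and 1.16 and 1.66 in esiGFP (1.31, adjusted p = 0.0439, limma). DHRS3, which turns retinaldehyde back into retinol, rose by 1.30 in limma's blocked fit (adjusted p = 0.000339, and 0.128 without the block, where the GC correction gave a call at 0.00321). Without the block, leaving out any 1 library ended the calls of CRABP2 and RDH10, and RARB kept its call without either esiFLI1 library (adjusted p = 0.0338 and 0.0386, limma) and lost it without each of the others. In limma these values reached 0.231 for CRABP2, 0.135 for RARB and 0.246 for RDH10 over the settings run, while the 10 blocked settings all called these 4 genes. CRABP2 was also not called without the block at a pseudocount of 0.1 or under either other filter on low values, nor RARB with quantile normalization, and among the other scalings and filters RDH10 was called with the GC correction alone. In esiUSP9X against esiGFP 0 of the 19 were called by limma in either fit, against 0.238% of all genes with the block and 0.0247% without it. At an unadjusted p under 0.05 there were 0 without the block, against 0.937% of all genes. With the block there were 2 (10.5%), against 10.9% of all genes.

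Of 28 Polycomb genes, whose products silence HOX clusters, 27 passed, and limma's blocked fit called 1 higher and 5 lower in esiFLI1 against esiGFP (22.2%, against 42.1% of all genes). The lower ones included CBX2 (-0.42) and EZH2 (-0.36), which were not called under all of the 10 blocked settings. Of 16 Trithorax and MLL complex genes 16 passed, and the blocked fit called 2 higher and 3 lower (31.2%, also against 42.1%). WDR5 (-0.51) and DOT1L (-0.46) were lower and KMT2C (0.38) and KMT2E (0.36) higher, and each of these 4 calls was lost under at least 2 of the 10 blocked settings. Without the block limma called 0 genes of both lists, with 0 at an unadjusted p under 0.05, against 15.8% of all genes.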
